A study of Caenorhabditis elegans with 6 samples.

Results

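The 10 genes described here act in DNA replication and mitosis and were followed on 6 single-colour Affymetrix arrays of whole Caenorhabditis elegans N2 larvae, as a reading of larval cell division. They were taken by name: mcm-2, mcm-3, mcm-4, mcm-5, mcm-6 and mcm-7 of the replicative helicase, pcn-1, rnr-1, cdk-1 and cyb-1. All 10 genes had a probe set with a single gene symbol, out of 17118 such genes on the array, and 14 probe sets read them, because mcm-3, mcm-7 and cyb-1 had more than 1. The 3 nhr-23 RNAi samples were L2 larvae grown from synchronized L1 on HT115 bacteria making double-stranded RNA from the ligand-binding domain of nhr-23, and the 3 control samples were grown the same way on HT115 with the empty L4440 vector (spelled LL4440 in some labels). Both were harvested after 21 hours at 20 C. Feeding RNAi lowers a transcript and does not remove the gene. The comparison asked which transcripts differ when NHR-23, a nuclear receptor on which the molts depend, is knocked down. The titles call the samples biological replicates 1 to 3 of each group, without saying which cultures they came from, so p-values measure only the spread between these samples.

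The MCM proteins form a ring that is loaded on origins in G1 and unwinds DNA ahead of the polymerases in S phase. PCN-1 is PCNA, the clamp that holds the polymerase on its template, and RNR-1 is the large subunit of ribonucleotide reductase, which makes the deoxyribonucleotides. CDK-1 is the kinase that drives cells into mitosis and CYB-1 is a B-type cyclin that activates it. In larvae of this stage most somatic cells no longer divide. Replication goes on in blast cells such as the epidermal seam cells, in the germ line and in intestinal nuclei that re-replicate without dividing, so a whole-larva value averages a minority of cycling nuclei with many resting ones. In such bulk samples, fewer cycling cells and less transcript per cell cannot be told apart.

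Values are log2 expression per probe set as deposited, so a difference of 1 is a factor of 2. Array medians over 22548 probe sets lay between 5.12 and 5.18. Of the 2 nhr-23 probe sets, the one brighter in controls averaged 7.55 ± 0.10 in RNAi-labelled arrays and 8.04 ± 0.27 in controls, and the other averaged 9.04 ± 0.49 and 6.32 ± 0.45 (SD, n = 3 each). The second, 2.72 log2 higher in RNAi-labelled arrays, passed with the replicate number as a block (limma adjusted p = 0.0370) and not without it (limma adjusted p = 0.993). It went against the labels if it read the worm's own transcript, so directions below are those of the arrays as labelled. Of 12 tissue markers, 10 read above the array medians on every array, among them ges-1 of the intestine, myo-3 of body wall muscle, myo-2 of the pharynx and rab-3 of neurons. The exceptions were the muscle factor hlh-1, at 3.99 to 4.46, and the pharyngeal factor ceh-22, at 4.23 to 4.71. Of 5 yolk genes, which are switched on in adults, vit-1 and vit-2 read 2.59 to 3.06 and vit-4 and vit-5 read 4.44 to 5.04, below the array medians, while vit-6 read 5.50 to 5.78, above them. In these marker lists, genes other than rab-3 and ceh-22 were picked for this check after their values were seen.

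Among the helicase genes, mcm-5 (probe set 189811_s_at) read 9.01, 9.08 and 8.42 in RNAi-labelled replicates 1, 2 and 3, against 9.05, 8.87 and 8.39 in the controls of the same numbers. The 2 groups overlapped, and in each of them replicate 3 stood apart below the other arrays. For mcm-6 (190078_at) the values were 8.40, 8.31 and 7.87 in RNAi-labelled arrays and 8.40, 8.16 and 7.87 in controls. The replicate 1 and replicate 3 arrays of the 2 groups read nearly alike, and RNAi-labelled replicate 2 was 0.15 above its control. For mcm-2 (191321_s_at) they were 7.83, 8.08 and 7.46 in RNAi-labelled arrays and 7.97, 7.72 and 7.47 in controls. Here the highest and the lowest array were both RNAi-labelled. The gene mcm-4 (176475_s_at), whose mutants were described as lin-6 for failing to replicate DNA in larval blast cells, read 7.68, 7.73 and 7.06 in RNAi-labelled arrays and 7.65, 7.48 and 7.29 in controls. Its RNAi-labelled replicate 3 was the lowest of the 6 arrays.

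The brighter mcm-3 probe set (193664_s_at) read 7.49, 7.55 and 6.91 in RNAi-labelled arrays and 7.61, 7.47 and 6.99 in controls. The dimmer one (171893_x_at) read 6.95, 7.16 and 6.63, against 7.32, 7.03 and 6.88. Both had replicate 3 lowest in each group and the groups overlapped in both. The brighter mcm-7 probe set (173401_s_at) read 8.46, 8.67 and 8.12 in RNAi-labelled arrays and 8.58, 8.41 and 8.40 in controls, where replicates 2 and 3 were 0.02 apart. The dimmer one (193260_s_at) read 7.98, 8.18 and 7.60, against 7.96, 7.78 and 7.62. The 2 mcm-7 probe sets thus gave group differences of opposite sign, -0.05 and 0.13, each smaller than its standard error of 0.14 and 0.16.

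The clamp gene pcn-1 (190226_s_at) read 8.92, 8.92 and 8.20 in RNAi-labelled arrays, against 8.81, 8.66 and 8.27 in controls. The reductase gene rnr-1 (193772_s_at), whose promoter serves as a marker of S phase in worm larvae, read 8.90, 9.16 and 8.24, against 8.90, 8.59 and 8.31. In both genes the groups overlapped, replicate 3 was lowest in each group, and RNAi-labelled replicate 2 was above its control.

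The mitotic kinase gene cdk-1 (193939_at) read 7.52, 7.70 and 7.12 in RNAi-labelled arrays and 7.65, 7.52 and 7.52 in controls. Its controls were nearly flat, and the low value was RNAi-labelled replicate 3 alone. The 3 probe sets of cyb-1 were dim, at values between 5.52 and 6.05, not far above the array medians. The brightest (171947_x_at) read 6.05, 5.96 and 5.78 in RNAi-labelled arrays and 5.96, 5.89 and 5.84 in controls. The other two (175636_at and 188409_s_at) stayed between 5.52 and 5.83 on all arrays. Detection calls were not used here, so how much of the cyb-1 signal stands above background is not known.

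**Figure D1:**
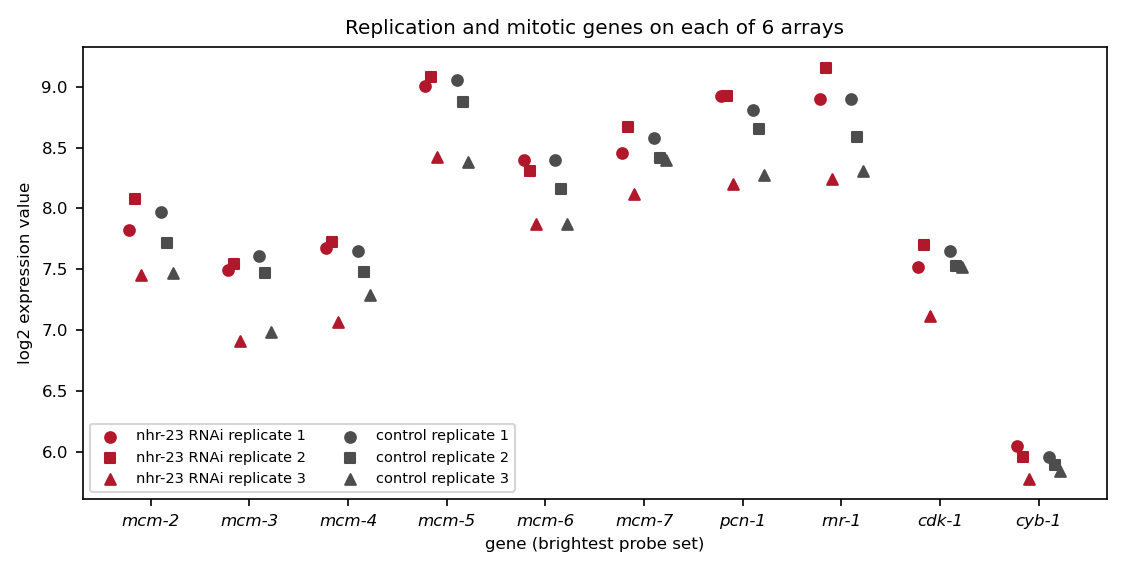
Log2 expression value (vertical axis) of the brightest probe set of each of the 10 genes on the 6 arrays, nhr-23 RNAi in red left of control in grey, with a marker shape for each replicate number. The groups overlap for every gene, and the triangles of replicate 3 are lowest in both groups, by only 0.01 in the controls of cdk-1.

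No difference between RNAi-labelled and control larvae was detected in any of the 10 genes. By limma, 0 of their 14 probe sets had an adjusted p under 0.05, where percent called over all 22548 probe sets was 0%, and 0 had an unadjusted p under 0.05, against 3.69% of all. The 2 groups overlapped for all 14, while they did not overlap in 9.5% of all probe sets. By the brightest probe set of each gene, 7 genes were higher and 3 lower in RNAi-labelled arrays, at a median log2 difference of 0.04. Over all probe sets the median was 0.01 and 55% were higher. With the replicate number as a block, 0 of the 14 passed, adjusted or not, where 0.00887% of all probe sets passed when adjusted and 5.96% unadjusted.

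How large a change these arrays leave room for is given by the 95% intervals of limma. The largest difference was that of rnr-1, which averaged 8.77 ± 0.47 in RNAi-labelled arrays and 8.60 ± 0.30 in controls (SD, n = 3 each), a log2 difference of 0.17 with an interval from -0.44 to 0.78 (limma adjusted p = 0.993). This interval spans 1.36-fold lower to 1.72-fold higher. For pcn-1 the difference was 0.10 (-0.45 to 0.65), and for the brighter mcm-3 probe set it was -0.04 (-0.57 to 0.49). For cdk-1, at 7.45 ± 0.30 in RNAi-labelled arrays and 7.57 ± 0.08 in controls (SD, n = 3 each), it was -0.12 (-0.48 to 0.24). The block narrowed these intervals, to -0.16 to 0.50 for rnr-1, -0.13 to 0.34 for pcn-1, -0.25 to 0.17 for mcm-3 and -0.41 to 0.17 for cdk-1. All 14 intervals of the fit without the block included 0 and excluded a 2-fold change in either direction.

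**Figure D2:**
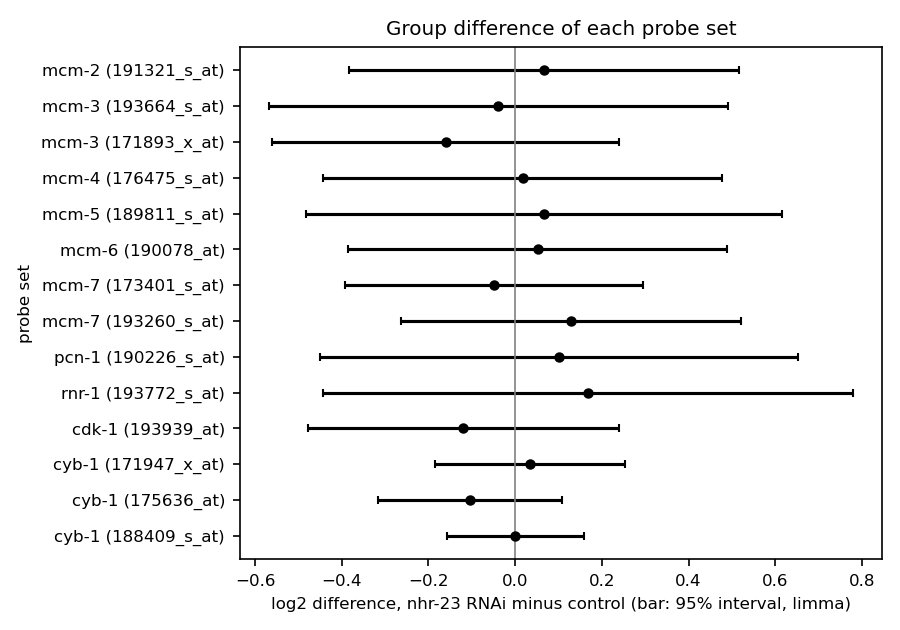
Log2 difference between nhr-23 RNAi and control (horizontal axis) of each of the 14 probe sets, with the 95% interval of limma as the bar. Every interval crosses 0, and the widest is that of rnr-1, from -0.44 to 0.78.

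The sign of these small differences rested on single arrays. With 1 array left out, the number of the 10 genes lower in RNAi-labelled larvae was 9 when RNAi replicate 2 was dropped, 8 for RNAi replicate 1, 8 for control replicate 3, 1 for control replicate 1 and 0 for RNAi replicate 3, against 3 with all arrays. With both replicate 3 arrays left out it was 1, and the median log2 difference was 0.08.

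The same-number arrays differed in a way the group means hide. In replicate 2 all 10 genes were higher in the RNAi-labelled array, with a median of 0.23 log2 and values from 0.07 for cyb-1 to 0.57 for rnr-1, where 53.7% of all probe sets were higher and their median was 0.02. In replicate 3, 9 of 10 were lower, with a median of -0.07, while 56.6% of all probe sets were higher. The 9 ran from -0.40 for cdk-1 to -0.004 for mcm-6, so some were close to no difference. The exception was mcm-5, at 0.04. In replicate 1, 5 were higher and 5 lower, with a median of -0.02, beside 49.7% higher among all probe sets. Each of these differences compares 1 array with 1 other and has no test, and the labels do not state that same-numbered arrays belong together.

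Most of the other lists also had a positive median in replicate 2. It was 0.22 for genes of origin licensing and firing, 0.18 for the replication fork and nucleotide supply, 0.14 for drivers and brakes of the cell cycle and 0.23 for mitosis and chromosome segregation. Among marker lists it was 0.23 for the germ line, 0.16 for seam cells, 0.04 for gametes and yolk and -0.03 for whole larva tissues. Their part in the result was not tested. The germline level, as the mean over 23 genes, was 6.96 in RNAi-labelled replicate 2 and lowest in control replicate 2, at 6.68. The other arrays lay from 6.74 to 6.80. RNAi-labelled replicate 2 was also the highest array for origin (5.83), fork (7.30), driver and brake (6.19) and mitosis genes (7.07). For fork genes this was close to a tie with control replicate 1 (7.28), and for drivers and brakes with control replicate 3 (6.17). RNAi-labelled replicate 2 was highest for gametes and yolk (4.98) too, and not for seam cells or whole larva tissues.

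**Figure D3:**
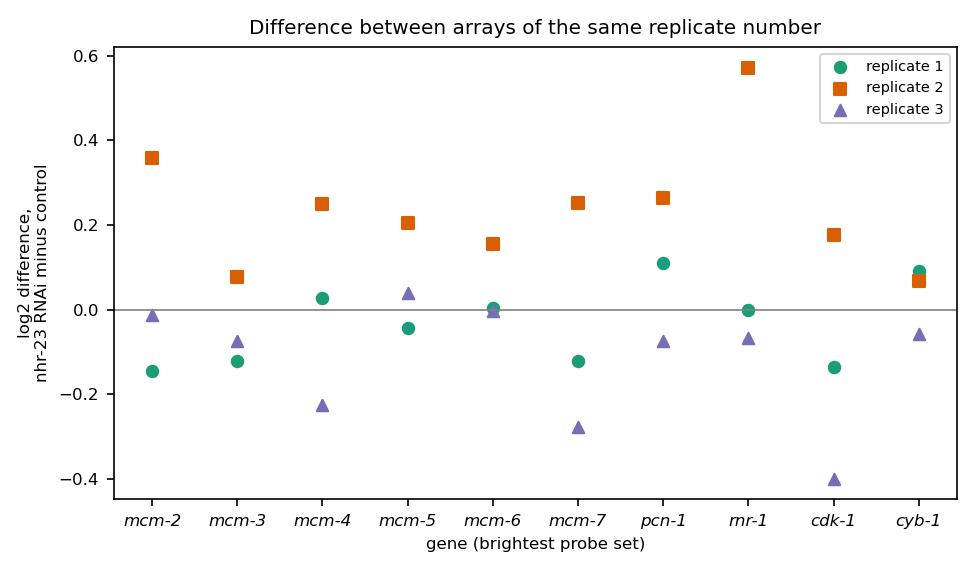
Log2 difference between the nhr-23 RNAi and the control array of the same replicate number (vertical axis) for the brightest probe set of each gene. All 10 squares of replicate 2 lie above 0, and 9 of the 10 triangles of replicate 3 lie below it, that of mcm-6 only just, at -0.004.

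Within each group the replicate 3 array stood lowest for these genes. Replicate 3 was the lowest array in both groups for all 10 genes by their brightest probe set and for 13 of 14 probe sets, where 18.4% of all probe sets, and 20.1% of those above the median level, did the same. The exception was the dim cyb-1 probe set 175636_at, where control replicate 3 was the highest control, at 5.83. For 3 genes the controls were nearly tied by the brightest probe set. Control replicate 3 minus the lower of the other controls was -0.01 for cdk-1, -0.02 for mcm-7 and -0.05 for cyb-1. Replicate 3 lay below the mean of replicates 1 and 2 by a median of -0.55 log2 in RNAi-labelled arrays and -0.39 log2 in controls, while the medians over all probe sets were 0.0005 and -0.02. In RNAi-labelled arrays replicate 3 lay below both others by more than their own gap in all 10 genes, against 17.8% of all probe sets. In controls this held for 5 of 10 genes, against 27% of all probe sets.

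For rnr-1 this difference was -0.79 log2 in RNAi-labelled arrays, or 1.73-fold lower, and -0.44 in controls, and for pcn-1 it was -0.72 and -0.46. These were the largest in RNAi-labelled arrays, whereas in controls mcm-5 and mcm-3 had the largest, at -0.58 and -0.55. The helicase genes ran from -0.64 for mcm-4 to -0.44 for mcm-7 in RNAi-labelled arrays, and in controls the smallest was -0.10 for mcm-7. Of the mitotic pair, cdk-1 stood at -0.49 in RNAi-labelled arrays and -0.07 in controls, and cyb-1 at -0.23 and -0.09. In all 14 probe sets replicate 3 minus the mean of replicates 1 and 2 was lower in RNAi-labelled than in control arrays, as in 46.7% of all probe sets. This measure also holds replicate 2, where all 10 genes were higher in the RNAi-labelled array. Against replicate 1 alone the order was reversed for mcm-2, mcm-5 and both mcm-3 probe sets. RNAi minus control was -0.15 in replicate 1 and -0.01 in replicate 3 for mcm-2, and -0.04 and 0.04 for mcm-5. The other probe sets kept the order, mcm-6 only just. With 1 replicate 3 array in each group the difference between groups was not tested.

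Whether replicate number had an effect was tested with the group held, by limma's moderated F test over the 2 replicate terms. It called 506 of 22548 probe sets, 2.24%, at an adjusted p under 0.05, and 0 of the 14 members. Those nearest the threshold were mcm-5 (adjusted p = 0.0640), the brighter mcm-3 probe set (adjusted p = 0.0647), pcn-1 (adjusted p = 0.0830) and mcm-6 (adjusted p = 0.120), all by limma. At an unadjusted p under 0.05 there were 7 of the 10 genes by their brightest probe set, against 12.4% of all probe sets. The 3 without were mcm-7, cdk-1 and cyb-1. The 2 mcm-7 probe sets disagreed, at an unadjusted p of 0.177 for the brighter and 0.0481 for the dimmer (limma F test). With group held, replicate 3 minus replicate 1 was furthest below 0 in mcm-5, pcn-1, rnr-1 and mcm-3. It was -0.63 for mcm-5 (95% interval -0.90 to -0.36) and -0.63 for pcn-1 (-0.92 to -0.34). For rnr-1 it was -0.63 (-1.03 to -0.22) and for mcm-3 -0.60 (-0.86 to -0.34). These intervals are not adjusted, and no member passed with the 3 contrasts between replicate numbers adjusted together. By the brightest probe sets, the intervals of mcm-2, mcm-4 and mcm-6 also lay below 0. Those of mcm-7 (-0.60 to 0.09), cdk-1 (-0.63 to 0.09) and cyb-1 (-0.45 to 0.06) crossed 0. Replicate 2 minus replicate 1 was -0.06 for mcm-5, -0.08 for pcn-1, -0.03 for rnr-1 and -0.04 for mcm-3, each with an interval across 0. For mcm-5, rnr-1 and mcm-3 these last values average 2 groups that went opposite ways. For pcn-1 replicate 2 minus replicate 1 was -0.0003 in RNAi-labelled arrays and -0.15 in controls. Among the 10 genes, replicate 2 lay above replicate 1 in 7 in RNAi-labelled arrays (51.9% of all probe sets). In controls it lay below replicate 1 in all 10 (53.3% of all probe sets).

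The calls of this test depended on which arrays were used. Without control replicate 2, 4 member probe sets passed, namely rnr-1 (limma adjusted p = 0.0145), mcm-5 (0.0260), pcn-1 (0.0292) and the brighter mcm-3 (0.0307). Without RNAi replicate 2, mcm-5 passed (limma adjusted p = 0.0490), as it did with a variance prior that follows the signal level (0.0420). With any of the other 4 arrays left out no member passed. Over all probe sets the count was 1304 when control replicate 2 was dropped, 878 for RNAi replicate 2, 189 for RNAi replicate 1 and 79 for control replicate 1.

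The members varied together over the 6 arrays. Pearson's r between the 8 replication genes ran from 0.76 to 0.98 over 28 pairs, with a median of 0.94. It had a median of 0.79 for cdk-1 and of 0.86 for cyb-1 with these 8. The mean of the 10 genes was 8.03, 8.12 and 7.52 in RNAi-labelled replicates 1, 2 and 3, against 8.06, 7.88 and 7.63 in the controls. These points share 6 libraries, of which both replicate 3 arrays are low in all of these genes.

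Genes that act beside the members were read from 4 lists. Their counts stand beside shares of all probe sets. These were 0% by group and 2.24% by replicate number adjusted, and 3.69% and 12.4% unadjusted. Replicate 3 was lowest in both groups in 18.4%. Of 23 measured genes of the replication fork and nucleotide supply, 0 passed the group test (1 unadjusted) and 2 passed the F test for replicate number, crn-1 and pri-1 (10 unadjusted), and 16 had replicate 3 lowest in both groups. The gene crn-1, which encodes the flap endonuclease FEN-1, read 7.19, 6.79 and 6.34 in RNAi-labelled arrays and 7.08, 6.72 and 6.25 in controls (limma F test, adjusted p = 0.0242). In both groups replicate 1 was its highest array and replicate 3 its lowest. The primase gene pri-1 read 5.85, 6.04 and 5.08 in RNAi-labelled arrays and 6.02, 5.69 and 5.06 in controls (limma F test, adjusted p = 0.0484).

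The thymidylate synthase gene tyms-1 and rnr-2, the small reductase subunit that works with RNR-1, were picked from this list after their values were seen. The values of tyms-1 were 7.81, 7.83 and 7.16 in RNAi-labelled arrays and 8.02, 7.66 and 7.32 in controls (limma F test, adjusted p = 0.0966). Those of rnr-2 were 8.35, 8.82 and 8.12 in RNAi-labelled arrays and 8.54, 8.58 and 8.46 in controls, so that among controls replicate 3 was 0.08 below the next array. By the group test the smallest unadjusted p of the list were those of the topoisomerase gene top-1, at a log2 difference of -0.22 (limma adjusted p = 0.993), and of the polymerase subunit gene pole-2, at 0.16 (limma adjusted p = 0.993).

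Of 18 measured genes of origin licensing and firing, 0 passed either test (unadjusted, 0 by group and 2 by replicate number) and 7 had replicate 3 lowest in both groups. The nearest by replicate number was psf-2, a subunit of the GINS complex that joins the MCM ring, at 6.19, 5.91 and 5.57 in RNAi-labelled arrays and 6.11, 5.58 and 5.46 in controls (limma F test, adjusted p = 0.0881). The next was psf-1, of the same complex (limma F test, adjusted p = 0.219). By the group test the smallest p were those of ddb-1, at 0.11 log2, and orc-2, at -0.12 log2, neither past the threshold.

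Of 53 measured genes of mitosis and chromosome segregation, 0 passed either test (unadjusted, 0 by group and 8 by replicate number) and 22 had replicate 3 lowest in both groups. The Aurora A kinase gene air-1 read 8.07, 8.18 and 7.54 in RNAi-labelled arrays and 8.10, 7.91 and 7.49 in controls (limma F test, adjusted p = 0.0958). The centriole assembly gene sas-5 came next (limma F test, adjusted p = 0.153). By the group test tac-1, a centrosomal microtubule factor, was 0.19 log2 higher in RNAi-labelled arrays and the kinetochore gene ndc-80 was 0.13 log2 higher, neither past the threshold.

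Of 25 genes that drive or brake the cell cycle, 0 passed either test (unadjusted, 2 by group and 6 by replicate number), 7 had replicate 3 lowest in both groups and 5 had it highest, against 16.1% of all probe sets. Among the 5 were both genes of the list with the smallest p by replicate number. The CDK inhibitor gene cki-1, which holds cells in G1, read 7.63, 7.52 and 8.03 in RNAi-labelled arrays and 7.40, 7.47 and 8.47 in controls (limma F test, adjusted p = 0.117). The cyclin A gene cya-1 read 5.84, 6.08 and 6.36 in RNAi-labelled arrays and 5.96, 6.04 and 6.71 in controls (limma F test, adjusted p = 0.112). The other three, named after their values were seen, were cdk-4, cdc-14 and cki-2. By the group test, cul-1 and cdc-25.4 were 0.21 and 0.22 log2 higher in RNAi-labelled arrays without passing the threshold.

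Replicate 3 was lowest in both groups for 69.6% of the fork and nucleotide genes, 41.5% of the mitosis genes, 38.9% of the origin genes and 28.0% of the drivers and brakes, beside 18.4% of all probe sets. The medians of replicate 3 minus the others were -0.35, -0.23, -0.22 and -0.09 log2 in RNAi-labelled arrays and -0.18, -0.06, -0.09 and 0.03 in controls, in the same order. Each of these medians was nearer 0 than that of the 10 members in the same group. The lists were also dimmer. Their means in control replicate 1 were 7.28, 6.96, 5.77 and 6.08 in the same order, against 8.06 for the members. Changes of dim probe sets may be compressed, and the part of signal level in this comparison was not tested.

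Marker lists of the cells that could hold these transcripts were set beside this. Over all probe sets, 18.4% had replicate 3 lowest in both groups and 12.4% had an unadjusted p under 0.05 by limma's F test. Of 23 germline genes, 2 had replicate 3 lowest in both groups, with medians of -0.10 log2 in RNAi-labelled arrays and 0.04 in controls, and 0 passed limma's F test (1 unadjusted). The 2 with replicate 3 lowest were the germ cell receptor gene glp-1 and mes-4, so they are not typical of this list. Of these, mes-4 was the gene that passed unadjusted (limma F test, adjusted p = 0.336). Values of glp-1 were 6.81, 7.23 and 6.69 in RNAi-labelled arrays and 7.07, 6.99 and 6.68 in controls. By the group test the P granule gene pgl-1 was 0.29 log2 higher in RNAi-labelled arrays (limma adjusted p = 0.993). The gene fbf-1 was 0.25 log2 higher (limma adjusted p = 0.993). The 7 measured seam cell genes had medians of -0.01 log2 in RNAi-labelled arrays and 0.12 in controls. In 1 of them replicate 3 was lowest in both groups, wrt-2, at 9.25, 9.63 and 7.53 in RNAi-labelled arrays and 10.82, 10.36 and 8.58 in controls (limma F test, adjusted p = 0.00811). In another, grd-10, named after its values were seen, it was highest in both, at 8.54, 8.17 and 9.39 in RNAi-labelled arrays and 7.92, 8.46 and 9.25 in controls (limma F test, adjusted p = 0.0717). Of the 12 tissue markers 4 had replicate 3 lowest in both groups, and 3 had it highest, against 16.1% of all probe sets. Among the 4, the epidermal collagen gene dpy-7 read 9.74, 9.74 and 8.11 in RNAi-labelled arrays and 11.08, 10.68 and 8.77 in controls (limma F test, adjusted p = 0.00681). Its transcript cycles with the molts. Of 14 genes of gametes and yolk 4 were lowest in both, with medians of -0.05 and -0.13 log2. The part of any of these in the members' values was not tested.

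**Figure D4:**
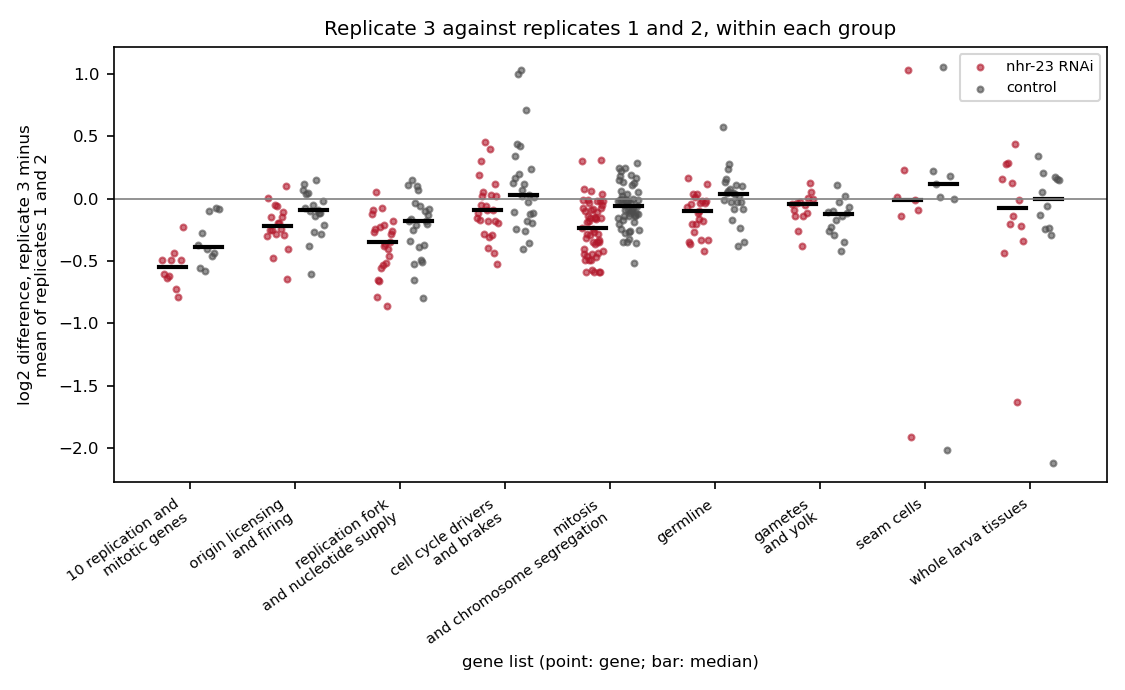
Replicate 3 minus the mean of replicates 1 and 2 on the log2 scale (vertical axis) for each gene of each list, nhr-23 RNAi in red left of control in grey, with the median as a black bar. The 10 replication and mitotic genes have the lowest medians, -0.55 and -0.39, and the germline medians are -0.10 and 0.04. The lists differ in signal level, which is not adjusted for.

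Genes outside these lists with a like pattern were sought by Pearson's r with the mean of the 10 members over the 6 arrays, among 6223 probe sets whose mean and SD were above the median. The 5 highest were T07C4.3 (0.993), ttc-36 (0.988), uri-1 (0.987), Y53F4B.9 (0.987) and sec-22 (0.986). Of the 6223 probe sets ranked, 215 had r above 0.9, so these 5 are not alone in matching closely over 6 arrays. The first of them, T07C4.3, read 6.41, 6.45 and 5.64 in RNAi-labelled arrays and 6.43, 6.23 and 5.81 in controls.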

How the data were processed

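The authors deposited 1 log2 value per probe set and array. The submitters' processing notes list MAS5, RMA and Partek without a role or version, so background correction and normalization are not given in the sources used here. Of 22625 probe sets, 77 array controls were left out and 22548 were tested, with no filter and no further normalization. Symbols came from the platform annotation, updated by Entrez identifier through the WBcel235 gene table (20701 of 20766 single-gene probe sets matched). The brightest probe set stood for a gene. Signal over background is unknown, small changes of dim probe sets may be compressed, and the number of arrays limits precision.

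The group test used lmFit and eBayes of limma 3.58.1 under R 4.3.3 (2-sided, Benjamini-Hochberg over all probe sets, threshold 0.05). Replicate number was tested by limma's moderated F test with group held. Deviations from group means correlated between same-numbered arrays at 0.58, 0.167 and 0.573 for replicates 1, 2 and 3. Between arrays of different numbers the values ran from -0.559 to 0.233. The highest of these, RNAi replicate 1 with control replicate 2, was above the same-number value of replicate 2. The numbers were treated as pairing the arrays, which the labels do not state and which these values leave unsettled for replicate 2. On simulated data of 22548 probe sets with variances from the fitted prior, 96% of 100 probe sets changed 2-fold were recovered by the group test, 92% with the block and 81% by the F test, with 12, 9 and 6 false calls. The simulated errors were independent, with no difference shared by same-numbered arrays, so the share of the unblocked group test may be too high for these arrays, where an nhr-23 probe set 2.72 log2 apart was not called. Members, lists and tests were chosen with earlier results of these data known. Genes to name were set as the members, nhr-23 and the 5 of most like pattern. To these came list genes past the threshold or otherwise the 2 with the smallest p in each fit. From the marker lists this rule also gave rnt-1, pie-1, fer-1, spe-11 and egg-1, whose values are not printed. None of them passed an adjusted threshold. Other named genes are said to be picked later. Alternatives were the replicate block, arrays left out, other scalings, a level filter, an intensity trend, probe set choice and, added after seeing the data, single contrasts between replicate numbers. Sequences are not used here.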

Additional observations from a re-analysis of the deposited data

How the results depend on the processing

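No member passed the group test under any alternative run for it. With the replicate block 2 probe sets passed over the whole table, neither a member, 1 of them the nhr-23 probe set that was higher in RNAi-labelled arrays, and the block changed no other call. The count of all probe sets passing the group test was 0 under every other alternative, and at an unadjusted p under 0.05 it was 833. The number of the 10 genes lower was 1 without both replicate 3 arrays and ran from 0 to 9 with 1 array left out. The probe sets called by replicate number ran from 79 to 1304 with 1 array left out. Signs of member differences were not stable. With 1 array left out the log2 difference ran from -0.078 to 0.23 for mcm-2, -0.22 to 0.16 for the brighter mcm-3, -0.10 to 0.23 for mcm-4, -0.13 to 0.27 for mcm-5, -0.083 to 0.21 for mcm-6, -0.17 to 0.098 and -0.00088 to 0.29 for mcm-7, -0.053 to 0.34 for pcn-1, -0.027 to 0.43 for rnr-1, -0.25 to 0.044 for cdk-1, and -0.026 to 0.11 and -0.012 to 0.024 for 2 cyb-1 probe sets. Without both replicate 3 arrays it was 0.066 for the brighter mcm-7, 0.020 for cdk-1 and 0.00054 for the cyb-1 probe set 175636_at. The dimmer mcm-3 kept its sign. With single contrasts between replicate numbers, adjusted over the 3 contrasts together, 0 members passed. The cause of these changes was not tested.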
